A study of Mus musculus with 4 samples.

Results

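The *Dlx*, *Hmx* and *Gbx* genes examined here are 8 homeobox genes of the dorsal otic vesicle, *Dlx1*, *Dlx2*, *Dlx3*, *Dlx5*, *Dlx6*, *Hmx2*, *Hmx3* and *Gbx2*. They were chosen by name, as the probe sets whose only symbol in the platform annotation is one of these, which gave 8 probe sets, 1 for each gene, of 35556 on the array, and 8 of 19938 genes with a symbol of their own. Signals were compared in whole cochleas at embryonic day 15 between *Meis2* flox/flox; *Pax2* Cre/+ mutants (2 arrays, replicates 1 and 2) and wild-type embryos (2 arrays, replicates 2 and 3). In the mutants a floxed *Meis2* allele is recombined by a Cre driven by *Pax2* regulatory sequences. These drive recombination from placode stages in the otic epithelium, so that the mesenchyme and cartilage in a whole cochlea are not its target. The spiral ganglion is not counted as outside the target, since the paper describes a reporter of this Cre as labeling every component of the inner ear. The sources used here do not say whether the wild-type embryos carried the floxed allele or the Cre, nor from how many embryos each RNA sample was made. The spread behind each p-value is that of these 4 arrays alone, and it may be technical.

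As background, the dorsal part of the otic vesicle forms the semicircular canals and other vestibular parts, while the cochlea grows from its ventral part. The hindbrain sends Wnt signals that maintain dorsal fates, and Sonic hedgehog from ventral midline tissue restricts them. Dlx proteins are homeodomain factors related to *Drosophila* Distal-less, and *Dlx5* and *Dlx6* are needed for canal formation in the mouse. *Hmx2* and *Hmx3* encode homeodomain factors of the vestibular epithelium, and *Gbx2* is a dorsomedial factor needed for the endolymphatic duct and the canals. *Meis2* itself encodes a TALE homeodomain factor that binds DNA alone or with Pbx and Hox partners.

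The upstream sequences of the genes are shown because *Dlx1* and *Dlx2*, which lie side by side in the genome, are set side by side below, where *Dlx1* was lower in mutants and *Dlx2* did not pass the test, while *Hmx2* and *Hmx3*, also side by side, differed by similar amounts. The sequence set used here held RefSeq start sites on GRCm38.p6 for 5 of the 8 genes, *Dlx1*, *Dlx2*, *Hmx2* (with 2 starts), *Hmx3* and *Gbx2*. It held none for *Dlx3*, *Dlx5* and *Dlx6*, so the search says nothing about these genes. The 250 bases before each of the 6 starts were read 5′ to 3′. Capitals mark a match to a searched motif or the longest run of bases that windows of 2 different genes share. The windows of *Hmx3* and of the downstream *Hmx2* start, which held neither, are not printed.
Dlx1, chr2:71529195-71529444, plus strand: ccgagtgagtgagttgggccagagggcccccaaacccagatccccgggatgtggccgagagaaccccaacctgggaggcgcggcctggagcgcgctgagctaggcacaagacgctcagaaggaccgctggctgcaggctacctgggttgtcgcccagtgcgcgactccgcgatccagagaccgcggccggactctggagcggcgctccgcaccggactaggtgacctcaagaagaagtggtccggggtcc
Dlx2, chr2:71546755-71547004, minus strand: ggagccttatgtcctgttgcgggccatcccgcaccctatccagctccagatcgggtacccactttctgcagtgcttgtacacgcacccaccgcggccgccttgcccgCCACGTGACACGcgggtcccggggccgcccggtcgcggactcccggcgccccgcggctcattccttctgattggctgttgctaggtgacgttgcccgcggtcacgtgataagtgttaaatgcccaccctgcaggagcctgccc
Hmx2, chr7:131548507-131548756, plus strand: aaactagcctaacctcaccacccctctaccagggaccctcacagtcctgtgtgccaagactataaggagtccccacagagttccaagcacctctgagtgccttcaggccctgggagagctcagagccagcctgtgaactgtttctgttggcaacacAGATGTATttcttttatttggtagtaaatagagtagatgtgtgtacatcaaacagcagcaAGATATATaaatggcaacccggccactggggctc
Gbx2, chr1:89931177-89931426, minus strand: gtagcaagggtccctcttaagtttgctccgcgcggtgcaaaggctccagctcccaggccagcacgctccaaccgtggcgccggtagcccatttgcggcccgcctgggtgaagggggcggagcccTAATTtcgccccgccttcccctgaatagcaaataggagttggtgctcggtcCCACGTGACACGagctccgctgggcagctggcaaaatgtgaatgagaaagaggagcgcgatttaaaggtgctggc
The direct Meis site TGACAG was in none of the 6 windows on either strand, while 15.9 percent of the 32851 RefSeq windows of the same length hold it. TGATNNAT, a core of composite Pbx-Hox sites, was in none (7.68 percent of all windows), and its variant AGATNNAT was found 2 times in the upstream *Hmx2* window (8.17 percent of all windows hold it), as the capitals show, with first bases 94 and 34 bases before the start. The Dlx core TAATT was found in the *Gbx2* window alone, starting 126 bases before the start (25 percent of all windows), and the Hmx core CAAGTG in none (11.6 percent). The windows of *Dlx2* and *Gbx2* shared 12 bases, CCACGTGACACG, which 3 of all 32851 windows hold. This run was looked for after the sequences had been seen. The windows were rich in G and C, with 61.6 to 76.8 percent apart from the upstream *Hmx2* window with 49.6 percent, against a median of 52.4 percent over all windows. A match is a string of letters, and binding at these windows was not measured on the arrays.

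Medians over all probe sets were 6.73 and 6.72 on the mutant arrays and 6.63 and 6.65 on the wild-type arrays, on the log2 scale of the deposited signals, which the robust microarray analysis (RMA) algorithm gives. The median difference over all probe sets was 0.11 (mutant minus wild type, as everywhere below). *Meis2* had signals of 9.61 and 9.80 in mutant and 9.64 and 9.38 in wild-type cochleas and did not pass (difference 0.19, limma adjusted p = 0.284). These signals thus do not show its loss. Whether its probe set lies outside the deleted exons was not tested. *Xist*, the RNA of the inactive X chromosome, was at 11.83 and 11.84 on the mutant arrays and at 5.54 and 11.51 on wild-type replicates 2 and 3. *Eif2s3y*, a gene of the Y chromosome, was at 4.68 and 4.88 on the mutant arrays and at 8.76 and 7.77 on the wild-type arrays (difference -3.49, limma adjusted p = 0.00396). Signal of a Y-linked gene was thus high on both wild-type arrays and low on both mutant arrays, so sex and genotype cannot be told apart in any comparison here. Wild-type replicate 3 had both signals high, as RNA of both sexes would give, and replicate 2 that of *Eif2s3y* alone. The wild-type arrays thus also differed from each other in these genes. None of the 8 genes is on chromosome X or Y. *Oc90*, the otoconin of otic epithelium, was present at 12.73 and 12.73 in mutant and 12.88 and 12.83 in wild-type cochleas. All 8 genes had a mean signal above 5.72, the level that 95 percent of 1210 olfactory and vomeronasal receptor probe sets, taken as genes not used in the cochlea, stay under.

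Of the 8 genes, 6 were higher in mutant cochleas, *Dlx1* was lower, and *Dlx2* did not pass the test. Each probe set was tested with limma, which fits a linear model and moderates its variance with that of the other probe sets, and p-values were adjusted over all 35556 probe sets with a threshold of 0.05. Over all probe sets 21.6 percent were higher and 15.7 percent lower past the same threshold, 37.3 percent in all. The arrays of the 2 genotypes did not overlap for any of the 8 genes, which was also the case for 76.1 percent of all probe sets. Of the 8 differences, 7 were above 0, against 63.6 percent of all probe sets. The median over the 8 genes was 0.48, beside 0.13 over the 19938 named genes. For the 1210 olfactory and vomeronasal receptor probe sets, taken above as genes not used in the cochlea, it was 0.17. Dim probe sets thus also tended upward in mutants, and their share in the smaller rises below was not tested.

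**Figure D1:**
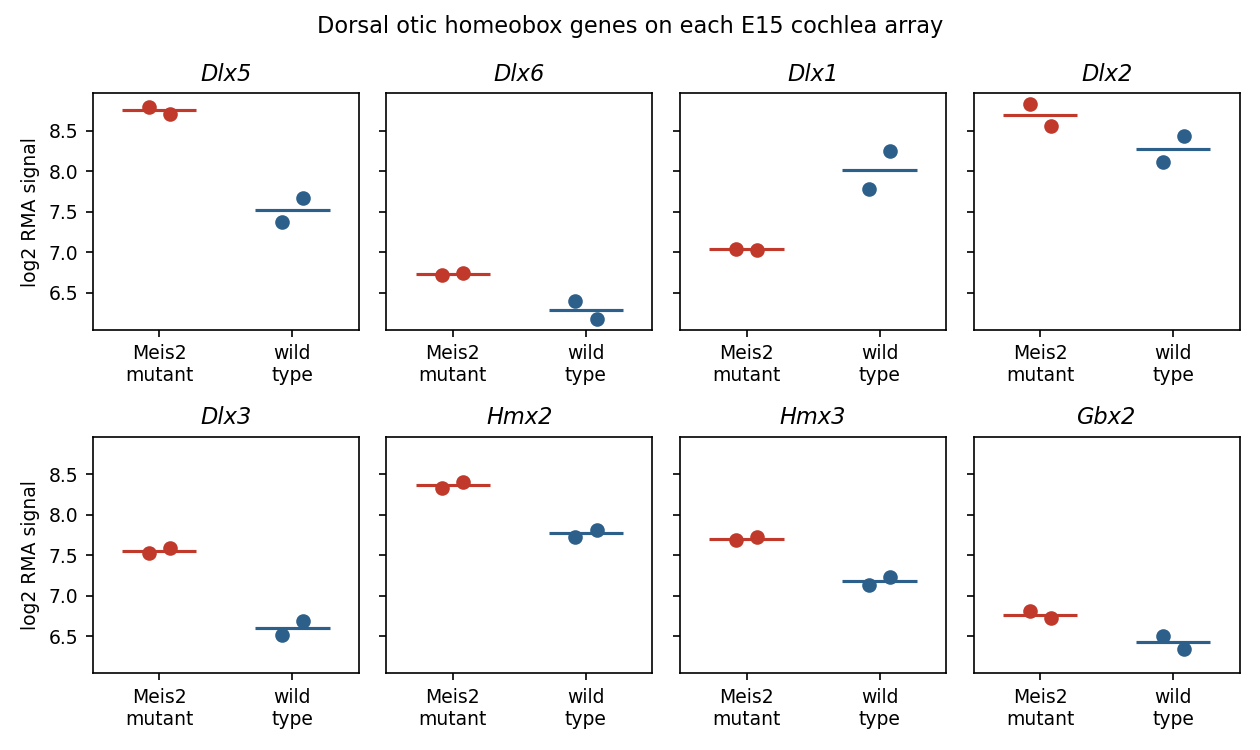
Log2 RMA signal (y axis) of each gene in *Meis2* mutant and wild-type cochleas (x axis), with points for single arrays and horizontal lines for the mean of the genotype (n = 2 each). The mutant points lie above the wild-type points for 7 genes and below them for *Dlx1*, and the closest approach is that of *Dlx2*.

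*Dlx5*, which marks the dorsal otic vesicle and is required for the anterior and posterior canals, had the largest difference of the 8 genes. Its log2 signals were 8.80 and 8.71 in mutant cochleas, against 7.37 and 7.67 in wild-type cochleas. The lowest mutant array was 1.04 above the highest wild-type array, while the arrays of 1 genotype were 0.09 apart in mutants and 0.30 apart in wild type. The gene rose by 1.24 (standard error, SE, 0.12, 95% confidence interval, CI, 0.91 to 1.56, limma adjusted p = 0.00433), which is 2.35-fold (interval 1.88 to 2.94). Differences of this size or more, in either direction, were found for 3.63 percent of all probe sets, and the call held without any single array (adjusted p up to 0.0308).

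Its neighbor *Dlx6*, which acts together with *Dlx5* in the canals and the jaw, was also higher. *Dlx6* had signals of 6.72 and 6.74 in mutant cochleas and 6.40 and 6.18 in wild-type cochleas. The groups were apart by 0.33, against a gap of 0.22 between the wild-type arrays. It was higher by 0.44 (SE 0.10, 95% CI 0.18 to 0.71, limma adjusted p = 0.0289). This call did not hold after median scaling (limma adjusted p = 0.0591) or repeated quantile normalization (limma adjusted p = 0.0594). It was also lost without mutant replicate 1, mutant replicate 2 or wild-type replicate 3 (differences of 0.45, 0.44 and 0.33). The direction, which only the scalings could have changed, held. The gap between *Dlx5* and *Dlx6* on an array was larger in mutants by 0.79 (exact two-sided permutation p = 0.333 over the 4 arrays, the smallest that 6 relabelings allow).

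*Dlx1*, a factor best known from forebrain interneurons and the branchial arches, was the one gene of the 8 that was lower. Its signals were 7.05 and 7.02 in mutant cochleas and 7.78 and 8.24 in wild-type cochleas. The mutant arrays were nearly equal, and the wild-type arrays were 0.46 apart, the widest such gap among the 8 genes. *Dlx1* fell by 0.98 (SE 0.17, 95% CI -1.41 to -0.55, limma adjusted p = 0.0128), to 0.508-fold of the wild-type level (interval 0.377 to 0.684). The difference was -0.75 without wild-type replicate 3 and -1.21 without wild-type replicate 2, and the call ended without mutant replicate 1 (adjusted p = 0.0593) or mutant replicate 2 (adjusted p = 0.0661). In a whole cochlea, fewer cells that express a gene and less RNA per cell cannot be told apart.

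*Dlx2*, the neighbor of *Dlx1* with overlapping roles in the same tissues, was not lower. It had signals of 8.82 and 8.56 in mutant cochleas, against 8.11 and 8.43 in wild-type cochleas. The genotypes were only 0.13 apart, less than the gap of 0.26 between the mutant arrays and of 0.33 between the wild-type arrays. The difference was 0.42 (SE 0.15, 95% CI 0.02 to 0.82, limma adjusted p = 0.0882). With the adjustment limited to probe sets with 1 symbol it passed the threshold (adjusted p = 0.0414). The difference between *Dlx1* and *Dlx2* on an array changed by -1.40 between the genotypes (exact two-sided permutation p = 0.333 over the 4 arrays, again the smallest possible). Wild-type replicate 3 was above wild-type replicate 2 for both genes. The antisense transcript *Dlx1as*, which overlaps *Dlx1*, was at 5.46 and 5.63 in mutant and 5.39 and 5.55 in wild-type cochleas. Its mean of 5.50 lies under the level of 5.72 set by the olfactory and vomeronasal receptor probe sets, so its difference of 0.07 (limma adjusted p = 0.608) does not show whether the transcript changed.

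*Dlx3*, a factor of otic placode and epidermis, followed *Dlx5* in size. *Dlx3* had signals of 7.52 and 7.59 in mutant cochleas and 6.51 and 6.69 in wild-type cochleas. The groups were 0.83 apart. It rose by 0.95 (SE 0.10, 95% CI 0.70 to 1.21, limma adjusted p = 0.00445), which is 1.94-fold (interval 1.63 to 2.31), and the call held without any single array (adjusted p up to 0.0352). *Dlx4*, its neighbor in the genome, had 6.197 and 5.996 in mutant and 6.03 and 5.90 in wild-type cochleas, so its groups overlapped, with a difference of 0.13 (limma adjusted p = 0.372).

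**Figure D2:**
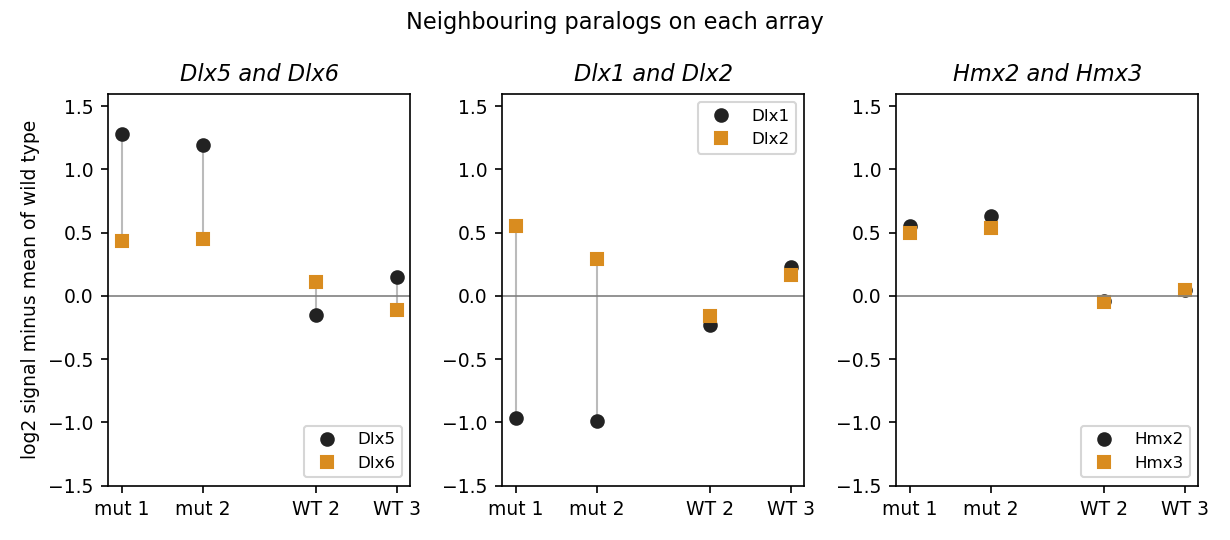
Log2 signal minus the mean of the gene's wild-type arrays (y axis) on each array (x axis, mutant replicates 1 and 2, wild-type replicates 2 and 3) for the neighbors *Dlx5* and *Dlx6*, *Dlx1* and *Dlx2*, and *Hmx2* and *Hmx3*, with a grey line joining both genes of an array. *Dlx1* and *Dlx2* lie on opposite sides of 0 on both mutant arrays, and *Hmx2* and *Hmx3* lie close together on all 4 arrays.

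*Hmx2* and *Hmx3* overlap in function in the vestibular epithelium and are expressed in a shared domain of the vesicle. *Hmx2* had signals of 8.33 and 8.41 in mutant cochleas and 7.73 and 7.82 in wild-type cochleas. It rose by 0.59 (SE 0.09, 95% CI 0.37 to 0.81, limma adjusted p = 0.00859), and the call was lost without mutant replicate 2 (adjusted p = 0.0605). For both genes the genotypes were clearly apart, by 0.51 for *Hmx2* and 0.45 for *Hmx3*, with gaps under 0.1 between arrays of 1 genotype. *Hmx3* had signals of 7.68 and 7.72 in mutant cochleas and 7.14 and 7.23 in wild-type cochleas. It rose by 0.52 (SE 0.08, 95% CI 0.30 to 0.73, limma adjusted p = 0.0112), and the call was lost without mutant replicate 1 (adjusted p = 0.0602) or mutant replicate 2 (adjusted p = 0.0724). The difference between the 2 genes changed by 0.08 (exact two-sided permutation p = 0.333, the smallest possible). As folds, the increases were 1.51 (interval 1.29 to 1.76) for *Hmx2* and 1.43 (interval 1.23 to 1.66) for *Hmx3*. Differences at least this large were found for 19.7 percent of all probe sets in the case of *Hmx2* and 24.5 percent in that of *Hmx3*.

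*Gbx2* had the smallest difference of the genes that passed. Its signals were 6.81 and 6.73 in mutant cochleas and 6.50 and 6.35 in wild-type cochleas. The groups were 0.23 apart, against a gap of 0.15 between the wild-type arrays. It was higher by 0.34 (SE 0.09, 95% CI 0.10 to 0.59, limma adjusted p = 0.0428), and 41.2 percent of all probe sets differed by at least as much. The call ended with a trended prior (adjusted p = 0.0630), after median scaling (0.26, adjusted p = 0.0971) or repeated quantile normalization (0.25, adjusted p = 0.103), and without mutant replicate 1, mutant replicate 2 or wild-type replicate 3 (adjusted p = 0.182, 0.131 and 0.122).

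**Figure D3:**
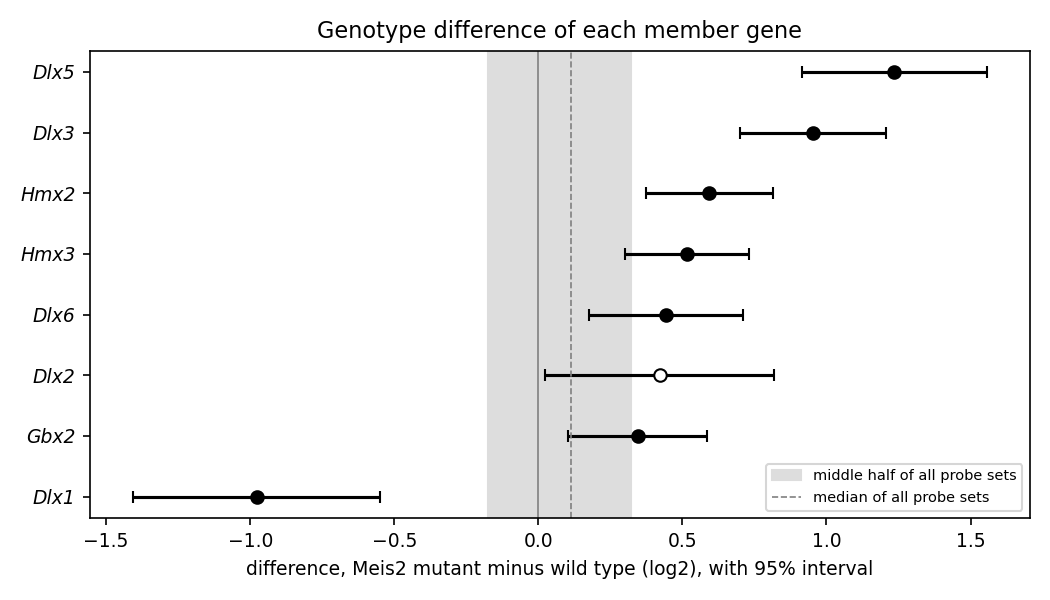
Log2 difference, mutant minus wild type (x axis), with its 95% confidence interval from limma for each gene (y axis), filled where the adjusted p was under 0.05. The grey band holds the interquartile range of all probe sets (-0.17 to 0.32) and the dashed line is their median (0.11), and the intervals of *Dlx5*, *Dlx3*, *Hmx2* and *Dlx1* lie outside the band.

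The differences of 4 relatives of these genes lay between 0.07 and 0.32. Of *Hmx1*, *Gbx1*, *Dlx4* and *Dlx1as*, only *Hmx1*, a factor of sensory ganglia and the outer ear, was higher past the threshold. *Hmx1* had 6.87 and 6.75 in mutant and 6.47 and 6.51 in wild-type cochleas, with a difference of 0.32 (limma adjusted p = 0.0411, reaching 0.192 with 1 array left out). *Gbx1* differed by 0.19 (limma adjusted p = 0.121). Of 37 other NK-like homeobox genes, the wider class that holds Dlx and Hmx genes, 12 were higher and 0 lower by limma, with a median of 0.30 (7 higher after median scaling, 6 after repeated quantile normalization, 2 without mutant replicate 1, and 0 without mutant replicate 2). At an unadjusted p under 0.05, 1 NK-like gene was lower, as with significance analysis of microarrays (SAM). Over all 19938 genes 4822 were higher and 3227 lower. *Vax2*, a factor of the ventral eye, rose by 0.63 (limma adjusted p = 0.00691, reaching 0.0520 with 1 array left out), and *Nkx2-6*, a factor of pharyngeal endoderm and heart, rose by 0.54 (limma adjusted p = 0.00825, reaching 0.0584 with 1 array left out). *Barx2*, whose mean of 5.68 also lies under the receptor level, and *Nkx2-5* rose by 0.51 and 0.52, and both calls were lost without mutant replicate 2. That of *Barx2* was also lost without mutant replicate 1, and that of *Nkx2-5* without wild-type replicate 3.

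Among signals and regulators of the dorsal vesicle, 17 of 31 measured genes were higher and 0 were lower by limma. Their median was 0.37. After median scaling 13 were higher, and fewer were when 1 mutant array was left out (median 0.34 without either one). At an unadjusted p under 0.05, 0 were lower, and SAM called 2 lower. The list also holds genes of the Hedgehog pathway (*Gli1*, *Gli2*, *Gli3*, *Smo*, *Ptch1* and *Shh*), whose ligand restricts dorsal fates. Its count is thus not one of dorsal signals alone. *Gli2*, a transcription factor of the Hedgehog pathway, had 9.94 and 9.94 in mutant and 8.90 and 8.78 in wild-type cochleas and rose by 1.10 (limma adjusted p = 0.00305). *Gli1*, a direct target of the pathway, rose by 0.88, *Ptch1*, the receptor and another target, rose by 1.14, and *Gli3*, the main repressor, rose by 0.68, a call lost when mutant replicate 2 was left out (adjusted p = 0.0530). *Smo*, the signal transducer of the same pathway, differed by 0.16 and did not pass (limma adjusted p = 0.267). The ligand gene *Shh* had 7.17 and 7.08 in mutant and 7.37 and 7.30 in wild-type cochleas and did not pass (limma adjusted p = 0.106). The dorsal ligand genes *Wnt1* and *Wnt3a*, named for their role after their values had been seen, as were *Smo*, *Shh* and *Bmp4*, differed by 0.08 and 0.15 (limma adjusted p = 0.439 and 0.207). The count of higher genes includes *Chd7*, a chromatin remodeler, by the brightest of its 30 probe sets, which was higher by 1.37 (limma adjusted p = 0.0131). Over all its probe sets 5 were higher and 17 lower, with a median difference of -0.40, so no direction is given for this gene. With all probe sets of a gene averaged, 19 genes of the list were higher and 1 was lower.

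Of 21 genes of semicircular canal and vestibular morphogenesis, 8 were higher and 3 were lower, with a median of 0.15. Without mutant replicate 1 there were 3 and 2, and without mutant replicate 2 there were 2 and 2. *Lrig3*, which shapes the lateral canal, had 10.68 and 10.68 in mutant cochleas and 9.66 and 9.55 in wild-type cochleas and rose by 1.07 (limma adjusted p = 0.00313). *Cyp26b1*, which breaks down retinoic acid, rose by 0.67. *Sox2*, the prosensory factor, fell by 1.94, and *Fgf10*, a ligand of the sensory patches needed for the canals, fell by 0.74, a call lost when mutant replicate 2 was left out (adjusted p = 0.0535). *Bmp4*, whose expression in the canal cristae depends on *Dlx5* in the mouse, had 10.59 and 10.63 in mutant and 10.52 and 10.40 in wild-type cochleas and differed by 0.15 (limma adjusted p = 0.217).

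**Figure D4:**
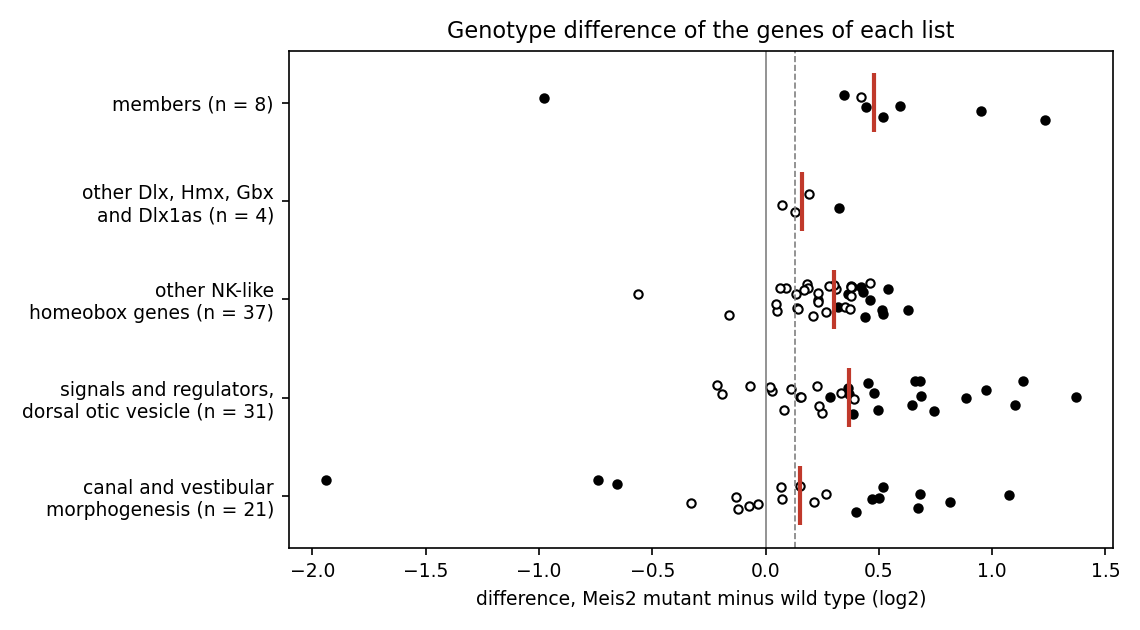
Log2 difference, mutant minus wild type (x axis), for the genes of each list (y axis, with the number measured), as filled points where the adjusted p was under 0.05 and open points otherwise, with red bars for list medians. The dashed line is the median of all named genes (0.13). The medians are 0.48 for the 8 genes, 0.30 for the NK-like genes and 0.37 for the signals and regulators, which include the Hedgehog pathway.

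Genes of other tissues that express *Dlx* or *Hmx* genes also differed, and their part in the results above was not tested. Over all named genes 24.2 percent were higher and 16.2 percent lower past the threshold, and several of the marker counts lie near these shares. Summed levels are the log2 of the summed linear signals of a list, given per array. Of 10 forebrain and GABAergic neuron markers, 4 were higher and *Isl1* was lower (2 and 0 without mutant replicate 1, 0 and 0 without mutant replicate 2, and 2 and 1 without wild-type replicate 3), with sums of 10.46 and 10.50 in mutant and 10.73 and 10.57 in wild-type cochleas, and *Gad1*, which makes GABA, rose by 0.60 (limma adjusted p = 0.0130, reaching 0.0765 with 1 array left out). *Isl1*, which is also on the ganglion neuron list, weighed most in these sums, at 9.27 and 9.22 in mutant and 10.05 and 9.82 in wild-type cochleas. The sums thus ran against the 4 higher markers. Of 10 epidermis markers 0 were higher and 2 lower by limma, with sums of 9.91 and 10.03 in mutant and 10.01 and 10.19 in wild-type cochleas. Of these *Krt5*, a basal keratin, fell by 0.57 (limma adjusted p = 0.0255, reaching 0.110 with 1 array left out), and *Dsc3* fell by 0.54. Without mutant replicate 1, mutant replicate 2 or wild-type replicate 3, 0 of the epidermis markers passed by limma. At an unadjusted p under 0.05, 2 epidermis markers were higher, as with SAM. Of 10 branchial arch mesenchyme markers 2 were higher and 2 lower (*Hand1* rose by 0.40 and *Gsc* fell by 0.40, and 0 passed by limma without mutant replicate 1 or without mutant replicate 2), with sums of 10.10 and 10.09 in mutant and 10.02 and 10.05 in wild-type cochleas. Of 6 osteoblast and bone markers only *Phex* passed and fell by 0.81 (the call was lost without mutant replicate 1 and without mutant replicate 2), with sums of 9.82 and 9.98 in mutant and 9.49 and 9.89 in wild-type cochleas. Of 11 hindbrain markers 4 were higher and 0 lower (1 higher after either scaling and 0 without mutant replicate 1, mutant replicate 2 or wild-type replicate 2), *Phox2a* and *Lhx5* among them, with sums of 10.58 and 10.61 in mutant and 10.29 and 10.40 in wild-type cochleas. For hindbrain and skeletal muscle 0 markers were lower at an unadjusted p under 0.05 or with SAM, and for ganglion neurons 0 were higher by either.

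Markers of the cochlea and of tissue around it moved in both directions, as did all named genes (24.2 percent higher and 16.2 percent lower). Of 13 otic epithelium markers 4 were higher and 3 lower (2 and 3 after median scaling, 3 and 2 without mutant replicate 1, 1 and 2 without mutant replicate 2, and 2 and 3 without wild-type replicate 3), with *Epcam*, a surface protein of epithelia, which fell by 0.90 (limma adjusted p = 0.00392), and *Sox2* among the lower ones, *Pax2* and *Tectb*, named after their values had been seen, higher by 0.97 and 0.60, and sums of 14.24 and 14.32 in mutant and 14.26 and 14.18 in wild-type cochleas. Of 12 ganglion neuron markers 7 were lower and 0 higher (3 lower without mutant replicate 2), with *Nefl* and *Gap43* first, which fell by 1.63 and fell by 1.19, with sums of 12.39 and 12.33 in mutant and 13.32 and 13.33 in wild-type cochleas. Of 11 periotic mesenchyme markers 2 were higher and 3 lower. Among them *Tbx15* rose by 0.98, and *Otor* fell by 1.22, a call lost without mutant replicate 2. The sums were 14.32 and 14.52 in mutant and 14.21 and 14.40 in wild-type cochleas. *Col1a1*, the other higher marker, was the brightest of the list on both mutant arrays and so weighed in these sums. It was named after its values had been seen, 12.23 and 12.72 in mutant and 11.12 and 11.31 in wild-type cochleas. Of 10 cartilage markers *Acan* and *Col2a1* alone passed and were higher by 0.65 and 0.41, with sums of 15.38 and 15.41 in mutant and 15.30 and 15.21 in wild-type cochleas. Both calls were lost without mutant replicate 1 and without mutant replicate 2. At an unadjusted p under 0.05, 0 cartilage markers were lower, and SAM called 3 lower. Of 15 skeletal muscle markers 11 were higher and 0 lower (5 after median scaling, 7 after repeated quantile normalization, 5 without mutant replicate 1, 2 without mutant replicate 2 and 1 without wild-type replicate 2), *Myh3* (by 1.55) and *Tnnc2* (by 0.48) first, with sums of 10.73 and 11.06 in mutant and 10.20 and 10.38 in wild-type cochleas. Of 5 erythroid markers 4 were higher and *Alas2* fell by 0.88 (0 to 1 higher with any 1 array left out, and 1 after median scaling), with *Hbb-y* higher by 1.10 and sums of 11.22 and 10.91 in mutant and 10.62 and 10.38 in wild-type cochleas.

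For each gene of the 8 that passed the test, the 2 named genes with the most similar profile were found by the distance between log2 signals over the 4 arrays, each centered on its mean. With only 4 arrays in 2 genotypes, the distances are a description. *Zfp580* and *Cybrd1* were nearest to *Dlx5* (distances 0.0458 and 0.0604), and *Nrtn* and *Ecm1* to *Dlx3* (0.0462 and 0.0491). *Rgs2* and *Bcap29* were nearest to *Dlx1* (0.0413 and 0.0425), and both fell, by 0.95 and 0.94. *Tmem189* and *Ranbp3* were nearest to *Dlx6*, *Muc1* and *Mfsd5* to *Hmx2*, *Mapk1ip1* and *Zfp691* to *Hmx3*, and *Myo7b* and *Gm9899* to *Gbx2*, with distances of 0.00772 to 0.0181.

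**Figure D5:**
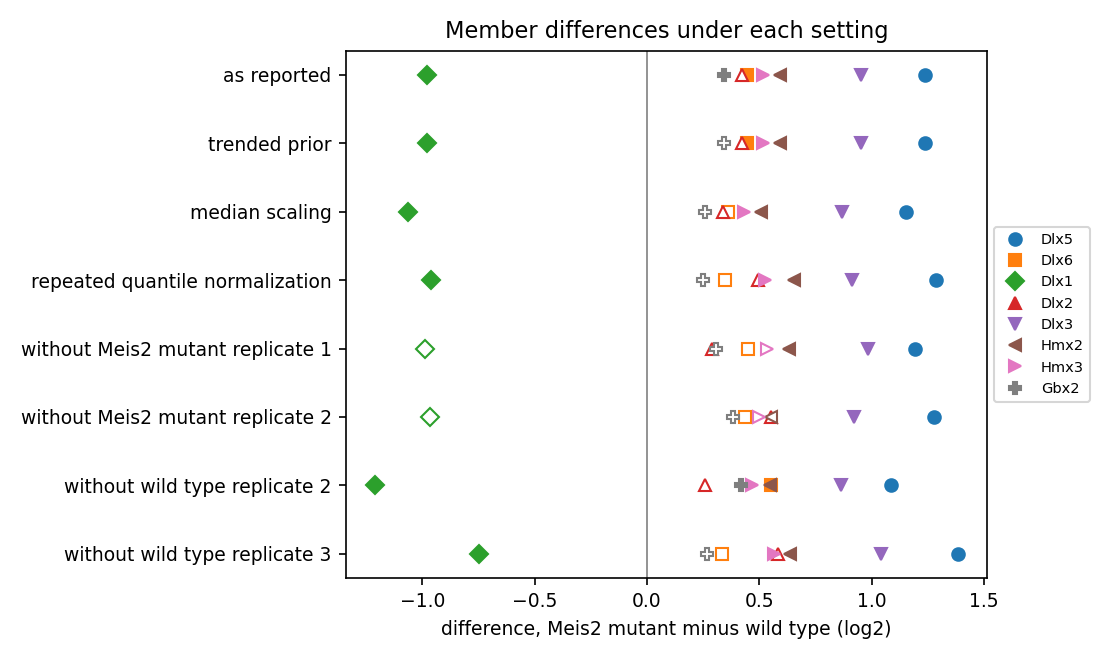
Log2 difference, mutant minus wild type (x axis), of each of the 8 genes, filled where the adjusted p from limma was under 0.05. The settings shown (y axis) are the fit as reported, the trended prior, both scalings and each array left out. SAM, the filter on dim probe sets, the choices of probe sets and the threshold of 0.1 are not drawn. No gene changed sides of 0, which only the scalings could have brought about. *Dlx5* and *Dlx3* stayed filled in all settings, while *Dlx1* opened without either mutant array.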

How the data were processed

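RNA of whole cochleas was amplified with the WT Expression Kit and hybridized to 4 Affymetrix Mouse Gene 1.0 ST arrays. The deposited values are log2 signals, and the authors obtained them by RMA (background correction, normalization between arrays and 1 summary per probe set). The processing notes name mm8. Depth does not apply to arrays, and their number limits the precision, since each spread rests on 2 residual degrees of freedom and 2.91 from the prior.
Differences were fitted with limma 3.58.1 (lmFit, eBayes) in R 4.3.3, without covariates, filter or further normalization, with Benjamini-Hochberg adjustment over 35556 probe sets. Symbols came from the platform annotation and were updated through the current gene record where found (21698 of 21789 probe sets with 1 symbol). A list gene with several probe sets is represented by the brightest. The genes and lists were chosen with earlier results of these data known. Named list genes have the smallest p of their list unless said otherwise, and every list was described by counts and medians. Alternatives included significance analysis of microarrays (SAM), which the methods name, other scalings and omitting arrays 1 at a time. The code was tested on simulated data. Motifs were searched on both strands of RefSeq windows, which were taken as upstream sequence only.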

Additional observations from a re-analysis of the deposited data

How the results depend on the processing

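The 12 alternatives were SAM, the trended prior, both scalings, the filter on dim probe sets, the probe sets tested, a threshold of 0.1 and omitting arrays 1 at a time. All 8 genes kept their direction, but only the scalings could have changed it. With an array omitted it could not reverse, because the arrays of the genotypes did not overlap. The other settings left the differences of these genes as they were. A threshold of 0.1 could also not lose a call. The calls of *Dlx5* and *Dlx3* held in all 12, that of *Hmx2* in 11, those of *Dlx1* and *Hmx3* in 10, that of *Dlx6* in 7 and that of *Gbx2* in 6. *Dlx2* gained a call in 4, with SAM, at the threshold of 0.1, with probe sets with 1 symbol only and with probe sets averaged per gene (adjusted p = 0.0396). The count of genes higher in mutants was 4 after either scaling, 5 with the trended prior and 7 in each of the 4 settings that gave *Dlx2* a call, and 2 to 6 when 1 array was left out, with 3 without mutant replicate 1 and 2 without mutant replicate 2. The count lower was 0 to 1 in those fits, with 0 without either mutant array, and the count past the threshold in either direction was 2 to 7. Over all probe sets 1998 to 5470 were higher and 2613 to 5425 lower when 1 array was left out. SAM called 17778 higher and 9184 lower, and median scaling left 5062 higher, a share lower of 56 percent of the calls against 42 percent as reported. With 1 array omitted, the spread of its genotype is taken from the other genotype. No paired analysis was run, because the labels do not say that any mutant array was paired with a wild-type array.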

Other observations

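For each of the 8 genes the wild-type arrays were farther apart than the mutant arrays, as was the case for 55.5 percent of all probe sets. The gap was 0.46 in wild type against 0.02 in mutants for *Dlx1*, while it was nearly equal for *Hmx2*, at 0.08 between the mutant and 0.09 between the wild-type arrays. Wild-type replicate 3 was the higher of its pair for 6 of the 8 genes, against 58.4 percent of all probe sets, the exceptions being *Dlx6* and *Gbx2*.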
